A study of Homo sapiens with 2 samples.

Results

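This account follows 9 genes of the microRNA processing machinery, DROSHA, DGCR8, XPO5, DICER1, TARBP2, AGO1, AGO2, AGO3 and AGO4, among 19974 protein-coding genes on chromosomes 1 to 22 and X. They were listed by function, and DROSHA drew attention because it ranked high among genes with a peak under TCF19 overexpression alone, so the gene-end calls of these libraries are described here and not tested. The data were ChIP-seq peak lists made with an antibody against TCF19, a PHD finger protein of the nucleus, in the Ishikawa line, which derives from a human endometrial adenocarcinoma. The TCF19 overexpression population had been infected with a lentivirus carrying TCF19 and the control population with a control lentivirus, and both were then selected with puromycin. The sources used here do not say which promoter drove the transgene or whether the populations were clones. Each group had 1 library and no replicate, so no difference between the groups could be tested, and intervals cover counting error only.

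MicroRNAs are cut from long nuclear transcripts by the Microprocessor, in which the nuclease DROSHA works with the RNA-binding protein DGCR8. Exportin-5, the product of XPO5, carries the hairpin precursor to the cytoplasm, where the nuclease DICER1 and its partner TARBP2 release a short duplex. An Argonaute protein, encoded by AGO1 to AGO4, keeps one strand of it and uses its seed to find target messages. The question here is where the TCF19 antibody enriched DNA at the genes that encode these proteins, and whether the places and heights of its peaks were other under TCF19 overexpression than in control.

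The overexpression list held 112212 summits (points of highest coverage in a peak) and the control list 170334. Heights are given as pileups, the number of sequenced fragments lying over the summit, with an exact Poisson 95% interval. The fold enrichment is the authors' value, a ratio of pileup to local background with 1 added to each, so it is lower than the plain ratio. The genome average was 1.429 fragments per position in the overexpression library and 1.582 in control, a ratio of 0.903. TCF19 itself had 3 summits inside the gene in the overexpression list, up to 143 reads, and 0 in control. Peak lists hold no expression values, so neither the cell line nor the TCF19 level was checked against marker genes, and the origin of these TCF19 summits was not tested.

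Of the 9 genes, 8 had a summit within 1000 bp of an end of the gene in the overexpression list, and 4 had one in control. Over all protein-coding genes these shares were 64.8% and 54.6%. A summit anywhere in the gene or within 5 kb of it was found for all 9 in the overexpression list and for 8 in control (not TARBP2), and for 87.2% and 85.4% of all genes. DROSHA, DGCR8, TARBP2 and AGO3 were called at a gene end under overexpression alone, a state shared by 16.0% of all genes, and none of the 9 had one in control alone, against 5.84% of all genes. DICER1, XPO5, AGO1 and AGO4 had one in both lists, as did 48.8% of all genes. AGO2 had none in either, as did 29.4%. Because DROSHA was picked on this contrast, nothing is read from these counts as support for a change.

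**Figure D1:**
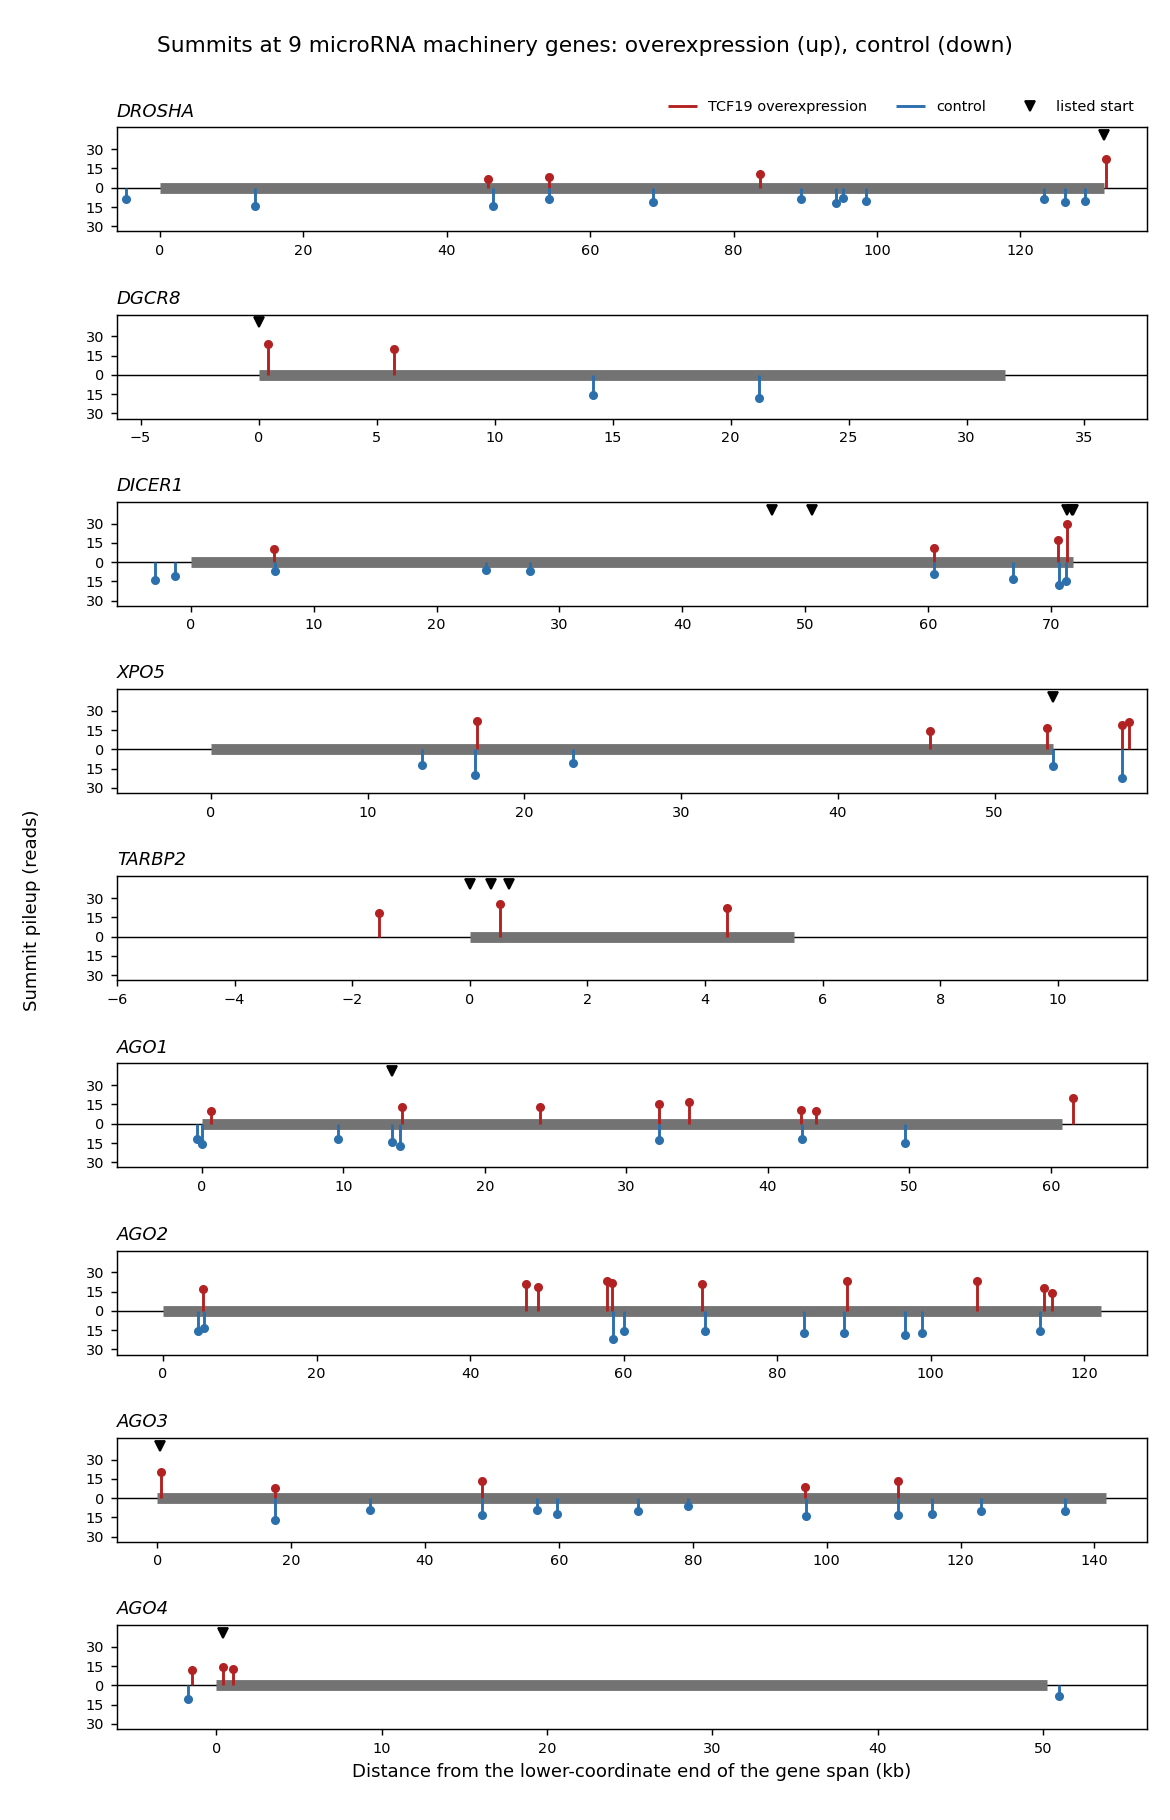
Summits within the 9 gene spans and 5 kb on each side, by distance from the lower-coordinate end of each span in kb. The height of each stem is the pileup in reads, upward for the overexpression library and downward for control, the grey bar is the gene span and black triangles are transcription starts listed by RefSeq. DROSHA and AGO3 each had a single tall overexpression summit at the start, with 22 and 20 reads, and more control than overexpression summits along the rest of the gene.

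DROSHA encodes the nuclease that makes the opening cut in microRNA maturation. Its gene lies on chromosome 5 from 31400494 to 31532093 (GRCh38.p14), on the minus strand, so that transcription starts at the higher coordinate. In the overexpression library a summit stood at 31532392, with 22 reads (13.8 to 33.3), a 7.05-fold enrichment and a −log10 q of 11.3. It lay 299 bp upstream of the listed start, in an interval from 31532151 to 31532591. The control list had no interval there, and its nearest summit, of 10 reads, stood 2872 bp away inside the gene. At an equal background, scaled for depth, the control cutoff would have been passed by a pileup of 8 reads or more. The probability that control would call a place of equal occupancy, with the local background scaled to its depth, rounded to 1.0. The same summit lies inside C5orf22, 91 bp from the start coordinate of that neighbouring gene (31532301 to 31555053), and it cannot be assigned to either gene. The RefSeq promoter window of DROSHA, from 250 bp before to 50 bp after the listed start, is shown because the first 193 bases printed lie in the overexpression interval. Capitals mark matches to 10 short promoter motifs searched on both strands: GGGCGG (bound by SP1 and KLF factors), CCAAT, read ATTGG on the other strand, and CCGGAA (the ETS motif), read TTCCGG on the other strand, in this window.
DROSHA, chr5:31532044-31532343, minus strand: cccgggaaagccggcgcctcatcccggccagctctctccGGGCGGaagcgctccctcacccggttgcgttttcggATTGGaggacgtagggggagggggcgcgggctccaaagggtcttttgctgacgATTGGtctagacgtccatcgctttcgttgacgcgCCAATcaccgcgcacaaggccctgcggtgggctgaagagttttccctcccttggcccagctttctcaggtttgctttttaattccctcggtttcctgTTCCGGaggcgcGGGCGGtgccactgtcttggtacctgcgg

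Among the 3193 genes with a gene-end summit in the overexpression list alone, DROSHA stood at rank 11 by fold. Among those above it, TJAP1 stood at rank 9 (7.38-fold, 18 reads). Just below it were ZNF618 (7.03-fold, 26 reads) and CNTNAP3C (7.0-fold, 16 reads), a gene with near-identical relatives whose reads cannot be placed with certainty. These genes lie close to DROSHA in fold, measured in 1 library, and they mark the surroundings of its rank only. Among the 12935 genes with any gene-end summit in that list, DROSHA ranked 307, in the top 2.37%. The other members seen in the overexpression list alone lay far apart in the same order: AGO3 was at rank 44, DGCR8 at 1353 and TARBP2 at 2375.

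Along the body of DROSHA control had the more summits. Farther than 1000 bp from its ends lay 3 overexpression summits inside the gene, with 7, 8 and 11 reads, and 11 control summits with 8 to 14 reads (median 10). A further control summit, of 9 reads, lay in the 5 kb beyond the lower end. One place was shared to within 100 bp: 8 reads at 31454800 in the overexpression library and 9 reads at 31454765 in control. The highest control summits, at 31413686 and 31446971, had 14 reads each (7.7 to 23.5), with 5.81- and 5.57-fold enrichments, more than any overexpression summit in the gene body. Neither lay in an interval shared with the overexpression list, which would have called an equal occupancy with probabilities of 0.986 and 0.968. For the 11 control summits of DROSHA in intervals with no overexpression counterpart, the probability that the overexpression library would have called an equal occupancy was 0.548 to 0.986 (median 0.82). The median is below the 0.95 used here as the mark of adequate depth, which these highest summits passed.

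DGCR8 encodes the double-stranded RNA-binding partner of DROSHA. The gene lies on chromosome 22 from 20080241 to 20111872, on the plus strand, and both libraries had 2 summits in it, at different places. The overexpression library had 24 reads (15.4 to 35.7) at 20080625, 384 bp downstream of the listed start, with a 3.66-fold enrichment, and 20 reads (12.2 to 30.9) at 20085994. Control had 16 reads (9.1 to 26.0) at 20094415 and 18 reads (10.7 to 28.4) at 20101449. The overexpression summits were thus nearer the start than both control summits. Local background was high in both libraries, 4.08 and 4.15 times the genome average at the overexpression summits and 3.16 and 3.23 times at the control summits. At the place of the overexpression summit near the start, the control cutoff would have needed 15 reads, and an equal occupancy would have been called with a probability of 0.994.

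The summit of DGCR8 at 20085994 stood beside microRNA hairpins that lie in this gene. The Microprocessor is known to cut hairpins in the DGCR8 transcript itself, which lowers DGCR8 levels. The interval of that summit, from 20085862 to 20086467, covered both mature products of MIR1306, which begin 78 bp and 118 bp from the summit. The MIR3618 hairpin, from 20085746 to 20085833, ended 29 bp before the interval. The nearest control summit to MIR3618 was 8582 bp away. The mature sequences from RefSeq (GRCh38.p14) are shown to mark what the interval covered and what it left out, with the seed in capitals, and the 3 seeds differ.
hsa-miR-1306-5p, chr22:20086072-20086093, plus strand: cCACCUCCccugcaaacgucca
hsa-miR-1306-3p, chr22:20086112-20086129, plus strand: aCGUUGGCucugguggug
hsa-miR-3618, chr22:20085797-20085818, plus strand: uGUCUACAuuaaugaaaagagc

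XPO5 encodes the export receptor of microRNA precursors and lies on chromosome 6 from 43522334 to 43576038, on the minus strand. Near its start the overexpression library had 17 reads (9.9 to 27.2) at 43575703, 335 bp downstream of the listed start, with a 4.07-fold enrichment. Control had 13 reads (6.9 to 22.2) at 43576095, 57 bp upstream of it, with a 2.82-fold enrichment. The 2 intervals overlapped, the summits lay 392 bp apart and the counting intervals overlapped. POLH, a DNA polymerase gene, begins at 43576185, and its lower end lay 482 bp from the overexpression summit and 90 bp from the control summit, so neither can be given to XPO5 alone. Inside the gene, the summits of the 2 libraries nearest each other, 109 bp apart, had 22 reads (13.8 to 33.3) at 43539284 in the overexpression library and 20 reads (12.2 to 30.9) at 43539175 in control. That place is also inside POLR1C, an RNA polymerase subunit gene. An overexpression summit of 14 reads at 43568241 had no control interval, and an equal occupancy would have been called there with a probability of 0.994. In the other direction, control summits of 12 reads at 43535780 and 11 reads at 43545442, inside XPO5 and POLR1C, had no overexpression interval. The overexpression library would have called an equal occupancy there with probabilities of 0.641 and 0.93.

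DICER1 encodes the nuclease that cuts precursors to their final length, and its gene lies on chromosome 14 from 95086228 to 95158010, on the minus strand. It had the highest pileup of the 9 genes. At 95157493 the overexpression library had 30 reads (20.2 to 42.8), with a 6.16-fold enrichment and a −log10 q of 12.8. Control had 15 reads (8.4 to 24.7) at 95157440, 53 bp away, with a 3.23-fold enrichment. Relative to the genome averages, the overexpression pileup exceeded the control pileup by a log2 ratio of 1.15, but the counting intervals overlapped. RefSeq lists 5 starts for DICER1, and these summits lay 36 bp and 89 bp downstream of one of them, at 95157529. The window at that start is shown because the overexpression interval, 95156604 to 95157858, covers all of it and the control interval, 95156637 to 95157689, covers its last 210 bases. Capitals mark the same motifs as above.
DICER1, chr14:95157480-95157779, minus strand: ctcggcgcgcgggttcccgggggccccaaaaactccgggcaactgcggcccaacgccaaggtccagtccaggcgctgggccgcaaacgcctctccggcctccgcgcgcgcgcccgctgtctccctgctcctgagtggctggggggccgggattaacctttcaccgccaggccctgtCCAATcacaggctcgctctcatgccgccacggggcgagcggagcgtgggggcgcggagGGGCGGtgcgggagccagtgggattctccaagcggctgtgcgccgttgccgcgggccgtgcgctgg

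A further summit in the same DICER1 intervals had 17 reads (9.9 to 27.2) at 95156815 in the overexpression library and 18 reads (10.7 to 28.4) at 95156922 in control. Side by side within these intervals, the summit nearer the listed start was the higher in the overexpression library and the lower in control. Within each library the counting intervals of the summits overlapped, so this order is within counting error. Of the 4 overexpression summits of DICER1, all lay in intervals that overlapped a control interval. Of the 9 control summits, 5 lay in intervals with no overexpression counterpart. They had call probabilities of 0.457 to 0.935 at equal occupancy, all below 0.95.

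TARBP2 encodes the double-stranded RNA-binding partner of DICER1 and lies on chromosome 12 from 53500923 to 53506431, on the plus strand. It had 3 overexpression summits in its window and 0 in control. They had 18 reads (10.7 to 28.4) at 53499370, 25 reads (16.2 to 36.9) at 53501430 and 22 reads (13.8 to 33.3) at 53505292, with 2.6-, 2.94- and 2.68-fold enrichments. These folds were low for the pileups because local background was 4.42 to 5.49 times the genome average. The control cutoff would have needed 19 reads at 53501430, and an equal occupancy there would have been called with a probability of 0.966. At 53499370 and 53505292 the probabilities were 0.84 and 0.924, below the 0.95 mark. The control summit nearest to 53501430 stood 8304 bp away. The summit at 53501430 also lies inside MAP3K12, a kinase gene, 109 bp from its higher end at 53501539, and it cannot be assigned to one gene. The summit at 53499370 lies inside MAP3K12 as well, and outside TARBP2, 1553 bp upstream of its span. RefSeq lists 3 starts for TARBP2. The window of the third is shown because the summit at 53501430 lies within it, 156 bp upstream of that start and 147 bp downstream of the second.
TARBP2, chr12:53501336-53501635, plus strand: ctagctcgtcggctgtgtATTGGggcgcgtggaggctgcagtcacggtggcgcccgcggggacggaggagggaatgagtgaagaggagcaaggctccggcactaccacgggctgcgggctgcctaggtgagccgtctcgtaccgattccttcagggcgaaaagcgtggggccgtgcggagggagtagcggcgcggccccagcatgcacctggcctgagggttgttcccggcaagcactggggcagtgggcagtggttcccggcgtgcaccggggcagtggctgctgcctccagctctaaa

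**Figure D2:**
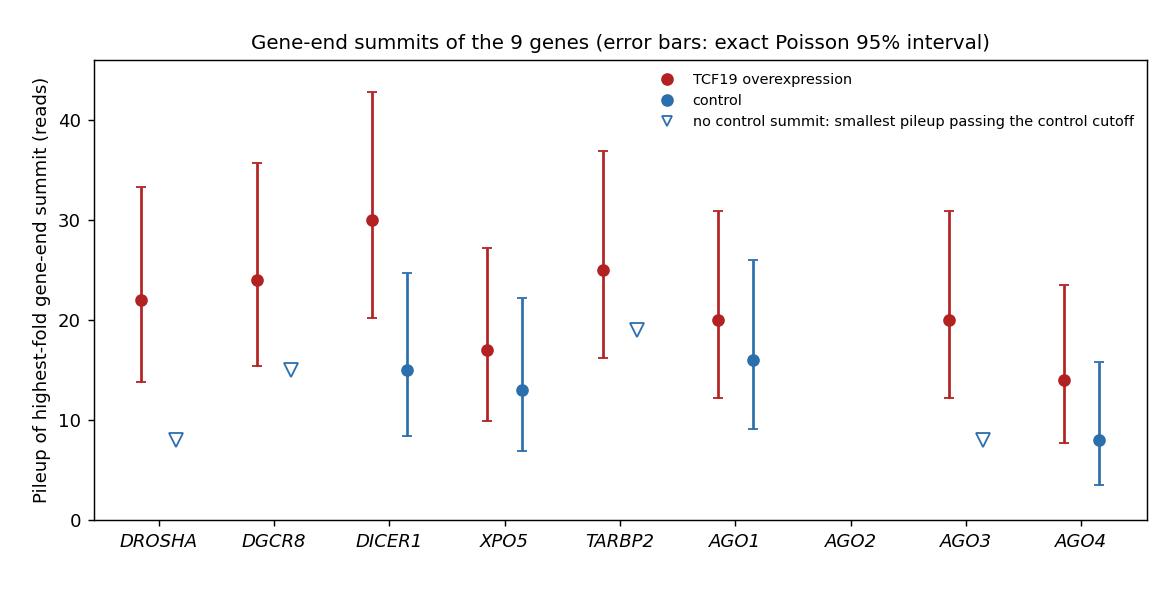
Pileup in reads of the highest-fold gene-end summit of each gene, overexpression left of control, with exact Poisson 95% intervals; open triangles give the smallest pileup that would pass the control cutoff where control had no gene-end summit. DROSHA (22 reads against a control cutoff of 8) and AGO3 (20 against 8) stood farthest above the cutoff, AGO1 and AGO3 share 1 overexpression summit, and at AGO1 and AGO4 the overexpression and control points lie at opposite ends of the gene.

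AGO1, AGO3 and AGO4 lie side by side on chromosome 1, and AGO1 and AGO3 share an overexpression summit between them. That summit, at 35931296, had 20 reads (12.2 to 30.9), a 6.28-fold enrichment and a −log10 q of 9.31. It stood 191 bp downstream of the listed start of AGO3 (35930718 to 36072500) and 764 bp past the end of AGO1 (35869761 to 35930532), both on the plus strand. The nearest control summit was 11834 bp away. The control cutoff would have needed 8 reads, and the probability of a call at equal occupancy was 1.0. The AGO3 window is shown because the whole of it lies in the overexpression interval, 35930842 to 35931822. Its CCGGAA match on the minus strand and a GGGCGG match on the plus strand overlap by 1 base.
AGO3, chr1:35930855-35931154, plus strand: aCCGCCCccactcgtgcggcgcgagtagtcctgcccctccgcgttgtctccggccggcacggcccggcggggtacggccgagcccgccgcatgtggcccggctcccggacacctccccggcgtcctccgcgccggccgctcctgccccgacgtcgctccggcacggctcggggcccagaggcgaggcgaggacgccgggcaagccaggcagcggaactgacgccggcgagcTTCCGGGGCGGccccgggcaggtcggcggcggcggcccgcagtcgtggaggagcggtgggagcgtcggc

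AGO3 resembled DROSHA in the rest of its span. Farther from the ends it had 4 overexpression summits of 8 to 13 reads and 12 control summits of 6 to 17 reads. At 35948367 the overexpression library had 8 reads (3.5 to 15.8) and, 17 bp away, control had 17 reads (9.9 to 27.2), the lowest ratio among the paired summits (log2 ratio −0.94), with overlapping counting intervals. The 8 control summits in intervals of the control list alone had call probabilities of 0.457 to 0.914.

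AGO1 had 8 summits in each library, the shared summit with AGO3 included. At the lower end of its span the overexpression library had 10 reads (4.8 to 18.4) at 35870420, and control had 12 reads (6.2 to 21.0) at 35869388 and 16 reads (9.1 to 26.0) at 35869735. RefSeq lists its start farther inside, at 35883209. Near that start the overexpression library had 13 reads (6.9 to 22.2) at 35883876, while control had 14 reads (7.7 to 23.5) at 35883181 and 17 reads (9.9 to 27.2) at 35883798. AGO1 thus had no summit above control at the lower end of its span or near its listed start, where the counting intervals overlapped. Its highest overexpression summit was the one it shares with AGO3. In intervals of one list alone it had 4 overexpression summits, the shared one included, and 2 control summits. The call probabilities in the other library were 0.924 to 1.0 and 0.641 to 0.981. The highest of these control summits, of 15 reads at 35919462, had a 5.25-fold enrichment.

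AGO4 (35807636 to 35857890, plus strand) had its gene-end summits at opposite ends in the 2 libraries. The overexpression library had 14 reads (7.7 to 23.5) at 35808051, 35 bp downstream of the listed start, and 13 reads (6.9 to 22.2) at 35808659 in the same interval. Control had 8 reads (3.5 to 15.8) at 35858581, 691 bp past the other end, and none near the start. The folds were low, 2.93 at the higher overexpression summit and 3.48 at the control summit. The control cutoff near the start would have needed 12 reads, and an equal occupancy would have been called with a probability of 0.847. That is below the mark of adequate depth used here, and whether depth accounts for this difference was not tested. The window is shown because its last 152 bases lie in the overexpression interval; it held none of the 10 motifs.
AGO4, chr1:35807766-35808065, plus strand: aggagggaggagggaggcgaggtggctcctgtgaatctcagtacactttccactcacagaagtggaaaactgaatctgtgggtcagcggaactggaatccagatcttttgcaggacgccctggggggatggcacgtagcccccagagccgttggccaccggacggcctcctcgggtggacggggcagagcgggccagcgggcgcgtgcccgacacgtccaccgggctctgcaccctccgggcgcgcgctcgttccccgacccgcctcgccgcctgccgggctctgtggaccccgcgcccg

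AGO2, the Argonaute with slicing activity in human cells, was the member with no summit within 1000 bp of either end of its span in either list. No listed start was used for AGO2, so a summit at its start was not assessed. Its span on chromosome 8, from 140520156 to 140642313, held 10 summits in each library. They had 14 to 23 reads (median 21) in the overexpression library and 13 to 22 reads (median 16.5) in control. Local background was raised in both, 2.28 to 4.95 times the genome average in the overexpression library and 2.42 to 4.21 times in control, and folds reached no more than 4.33 and 3.53. Nearest to the higher end were overexpression summits of 18 reads (10.7 to 28.4) at 140635003 and 14 reads (7.7 to 23.5) at 140636022, and a control summit of 16 reads (9.1 to 26.0) at 140634407. They lay 7310, 6291 and 7906 bp from that end.

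Over the 9 windows, each a gene span with 5 kb on both sides, the overexpression library had 43 distinct summits and control 60. Their pileups were 7 to 30 reads (median 17) and 6 to 22 reads (median 12.5). Median local background differed as well, at 2.59 and 1.54 times the genome average, and median folds were 3.8 and 3.5. Over the whole lists on chromosomes 1 to 22 and X, median pileups were 13 and 12 reads and median folds 4.05 and 3.87. Counted gene by gene, with the shared AGO1 and AGO3 summit entered for both, gene ends held 9 overexpression and 5 control summits, a ratio of 1.8. Elsewhere in the windows were 35 and 55, a ratio of 0.636. Over all protein-coding genes the same ratios were 1.28 at gene ends and 0.652 elsewhere, so the ratio elsewhere was near that of all genes. The gene-end ratio of the members rests on few summits and includes the DROSHA summit on which that gene was picked. Nothing is therefore read from it as support for a change. By gene, the overexpression library had fewer summits than control at DROSHA (4 against 12), AGO3 (5 against 12) and DICER1 (4 against 9). The libraries were level at DGCR8, XPO5, AGO1 and AGO2, and the overexpression library had more at TARBP2 (3 against 0) and AGO4 (3 against 2).

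Overlap between the lists was counted over whole intervals. Of 40 overexpression intervals, 20 overlapped a control interval (50.0%, Wilson interval 35.2 to 64.8), where the share of all overexpression intervals was 67.4%. Of 58 control intervals, 21 overlapped an overexpression interval (36.2%, 25.1 to 49.1), against 43.0% of all. Neither difference from the genome-wide share was tested. Of the 21 overexpression summits in intervals of that list alone, 11 had a call probability in control of at least 0.95. Of the 37 such control summits, 3 reached it in the overexpression library. The median call probability was 0.955 for these overexpression summits and 0.796 for these control summits. The same values over all genes are not given, so these are not read as particular to the 9 genes. The control summits were also judged against the library with the lower genome average (1.429 against 1.582 fragments per position). Its −log10 p cutoff was the higher (3.01 against 2.82). Whether depth accounts for the summits seen in one list was not tested.

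**Figure D3:**
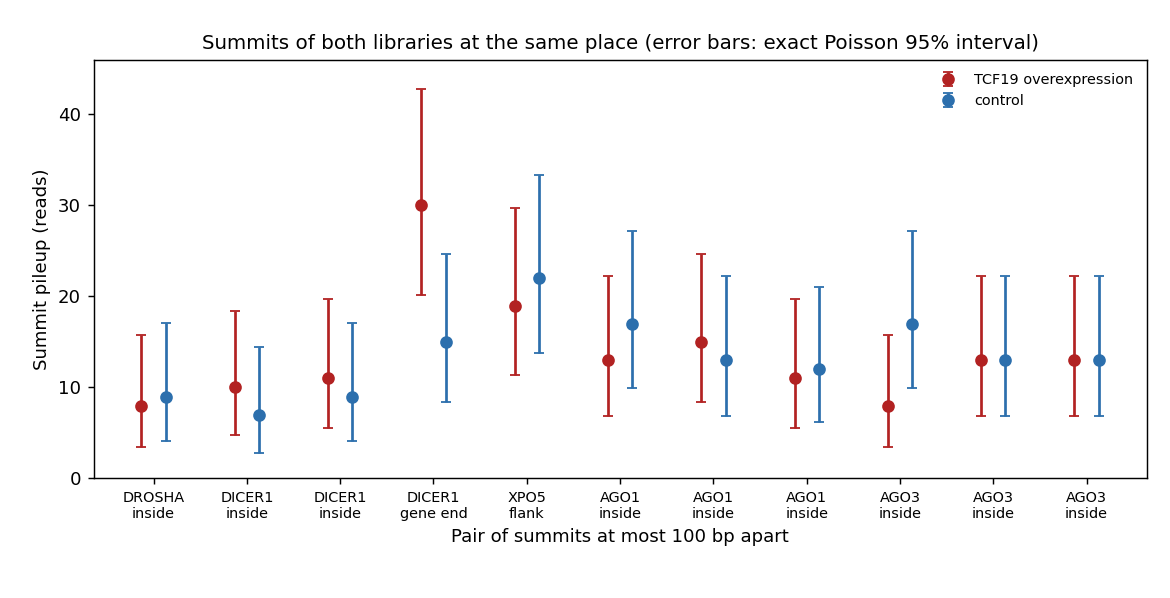
Pileups in reads of the 11 pairs of summits at most 100 bp apart, overexpression left of control, each with its exact Poisson 95% interval. The widest gap is at the gene end of DICER1, 30 reads against 15, and the counting intervals overlap in all 11 pairs.

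At 11 places in the windows both libraries had a summit within 100 bp. Relative to the genome averages, the overexpression pileup was higher in 7 pairs and lower in 4. The median log2 ratio was 0.15 and the range −0.94 to 1.15, and the counting intervals overlapped in all 11. The median was also 0.15 over all 41025 such pairs in the genome, of which 58.7% were higher in the overexpression library. DICER1 held 3 of the pairs and was higher in the overexpression library in each, with log2 ratios of 0.44, 0.66 and 1.15. AGO1 and AGO3 held 3 each, with log2 ratios from −0.24 to 0.35 at AGO1 and −0.94, 0.15 and 0.15 at AGO3.

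The promoter windows were searched on both strands for TATAAA (the TATA box), CCAAT (the motif of NF-Y), GGGCGG (SP1 and KLF factors), CCGGAA (ETS factors), CACGTG (the E-box), TGACGTCA (the cyclic AMP response element), GCGCATGC (NRF1), AAGATGG (YY1), and for the E2F motifs TTTCGCGC and also TTTGGCGC. RefSeq gives 14 windows for 8 of the 9 genes, some of them overlapping. GGGCGG was found in 10 of the 14, against 56.3% of the 22132 windows of protein-coding genes. CCAAT was found in 7 of the 14, against 34.6%. CCGGAA was found in 3, those of DROSHA, AGO1 and AGO3, against 21.2%. The other 7 motifs, TATAAA included (9.46% of all windows), had no match. The DROSHA window was 63.0% G or C, close to the median of all windows (62.3%), and had 28 CpG pairs, above the median of 21. Those of AGO3 and DGCR8 were 80.0% and 80.3%, above 96.6% and 97.0% of all windows. The windows of the other genes with printed sequence lay at 73.7% for DICER1, 68.0% for TARBP2 and 69.0% for AGO4. A match describes letters only and is not a binding site.

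Listed starts were also taken alone. Of the 8 members with a listed start used here (all but AGO2), all 8 had an overexpression summit within 1000 bp of one, and 3 had a control summit (DICER1, XPO5 and AGO1). Over the 15812 genes with a listed start the shares were 66.4% and 54.4%. DROSHA, DGCR8, TARBP2, AGO3 and AGO4 had one in the overexpression list alone, as did 16.4% of all genes, and no member had one in control alone, against 4.46%. DROSHA was picked on this contrast and the same lists were recounted, so nothing is read from these counts as support for a change.

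A wider list of 50 genes of the pathway, chosen by function with earlier results of these data known, had gene-end summits at 46 genes in the overexpression library (92.0%, Wilson interval 81.2 to 96.8) and 32 in control (64.0%, 50.1 to 75.9). In the overexpression list alone it had 16 (32.0%) and in control alone 2 (4.0%), beside the 16.0% and 5.84% of all genes. Partners of the Microprocessor and other factors of primary transcripts had 9 of 10 in the overexpression library and 4 of 10 in control. Loading factors, which help to place the duplex in Argonaute, had 9 of 9 and 5 of 9, and export and precursor factors 8 of 8 and 6 of 8. Effectors, which repress or degrade the target message, had 17 of 19 and 14 of 19. The germline PIWI relatives of the Argonautes had 3 of 4 in each. Groups of this size have wide counting intervals, and no difference between them was tested.

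**Figure D4:**
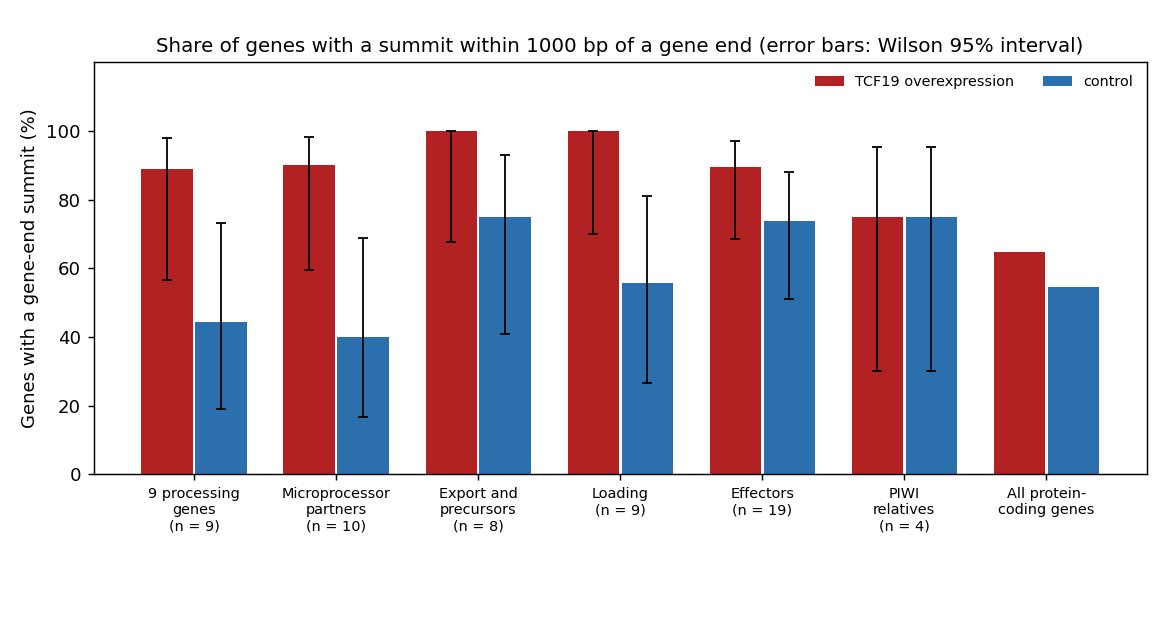
Percentage of genes with a summit within 1000 bp of a gene end, overexpression left of control, for the 9 processing genes, 5 groups of other pathway genes and all protein-coding genes; error bars are Wilson 95% intervals, not drawn for all genes. The share is higher in the overexpression library for each set except the PIWI relatives (75.0% in both), and the intervals are wide.

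Among wider-list genes called under overexpression alone, TSNAX had the highest fold. It encodes a subunit of the C3PO nuclease and had 17 reads (9.9 to 27.2) and a 6.32-fold enrichment. CNOT1, the scaffold of the CCR4-NOT deadenylase, had 20 reads (12.2 to 30.9) and 4.97-fold. SRSF3 and HNRNPA1, which encode RNA-binding proteins that act on primary transcripts, had 17 reads (4.34-fold) and 13 reads (3.93-fold). CNOT8, another subunit of the deadenylase, had 19 reads (3.79-fold). PRKRA, a DICER1 partner like TARBP2, had 16 reads (3.75-fold), and ZC3H12A, a nuclease gene, had 21 (3.52-fold).

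Seen in control alone were TNRC6A, which encodes a GW182 protein that binds Argonaute, with 14 reads (7.7 to 23.5) and 3.53-fold, and PIWIL3, with 12 reads (6.2 to 21.0) and 3.18-fold. ILF2 and PAN2 had no gene-end summit in either list. Of the genes with one in both, SND1, a nuclease gene of the silencing complex, had 25 reads (16.2 to 36.9) in the overexpression library and 15 (8.4 to 24.7) in control, 10 bp apart. TSN, which encodes the partner of TSNAX, had 25 (16.2 to 36.9) and 15 (8.4 to 24.7), and the decapping gene DCP2 had 19 (11.4 to 29.7) and 13 (6.9 to 22.2). PAN3, of a deadenylase, had 25 (16.2 to 36.9) and 10 (4.8 to 18.4), at opposite ends of the gene. At each of these 4 genes the Poisson intervals of both libraries overlapped.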

How the data were processed

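ChIP-seq peak lists of 2 libraries, 1 per group, were analysed; groups were taken from the genotype label. The submitters' processing notes name hg38, the aligner BWA 0.7.12 and the peak caller MACS2 2.1.0. For their parameters, duplicate handling and any input library, the entry is: not given in the sources used here. The deposited lists give a score, a fold enrichment (a ratio to local background), a −log10 p-value and a −log10 q-value per summit, all the authors' values, and the summit position. The lowest deposited −log10 q was 1.3011 in both lists, a q-value of 0.05.

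Pileups were solved as whole numbers from fold and −log10 p (Poisson, misfit at most 0.001), which succeeded at 99.996% of overexpression and 99.997% of control summits and at all summits used here; the steps were tested on simulated data. Total reads are unknown; the genome average stood for depth. Call probabilities scaled pileup and local background to the other library and used its lowest −log10 p (3.01 in the overexpression list, 2.82 in control). They ignore the other library's own background and can be too high, since summits are local maxima. The smallest pileup needed was within 1 read of the lists' own minima.

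Gene spans, promoter and microRNA sequences came from RefSeq tables of GRCh38.p14, which hold no exons, so exonic or intronic position was not determined. All 9 genes and all 50 wider pathway genes matched by symbol. Members and lists were chosen with earlier results of these data known. Named from the wider list were up to 8 genes seen in the overexpression list alone, 4 in control alone and 4 in both, by fold. Genes next to DROSHA in rank were named on both sides. Some genes that these rules pick are not reported here. ILF2 and PAN2 were named after their values were seen. Python 3.11.15, pandas 2.3.3, numpy 2.4.6, scipy 1.17.1 and matplotlib 3.10.9 were used.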

Additional observations from a re-analysis of the deposited data

How the results depend on the processing

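Each count was recomputed with other windows, thresholds and list lengths. With gene ends of 500 bp, 4 members were called at a gene end under overexpression (DROSHA, DGCR8, XPO5 and AGO4). In control 2 were called (XPO5 and AGO1). Over all genes these shares were 54.7% and 42.4%. The members' shares were thus below those of all genes in both libraries, unlike at 1000 bp under overexpression. In the overexpression list alone 3 members were called (DROSHA, DGCR8 and AGO4), and in control alone 1 (AGO1). The shares of all genes called in one list alone are not given at 500 bp, so nothing is read from these counts. With both lists cut to the same number of summits by fold, 7 members were called at a gene end under overexpression alone. In control 1 (AGO1) was called, and the member windows held 30 control summits. The cut removed control summits only, so by construction control calls could only fall and calls under overexpression alone only rise. Over all genes the cut left 64.8% under overexpression and 34.4% in control. The share of all genes called under overexpression alone is not given at this setting. Counting summits within 100 bp in place of overlap, 27.5% of member-window overexpression intervals had a control counterpart. The share of all overexpression intervals is not given by this rule. The 67.4% above counts overlap, so it cannot be set beside this value. The other 34 of 41 recomputed values kept their counts within 1.5 times or their share within the Wilson interval, among them all of those at 2000 bp, at a −log10 q of at least 2, at listed starts, and for the gene span alone or with 10 kb. DROSHA and DGCR8 were called in the overexpression list alone under every setting run. DROSHA was picked on this contrast and every setting recut the same lists, so nothing is read from this as support. No paired analysis was possible because each group had 1 library. In intervals of one list alone, the call probability in the other library went down to 0.457. Whether depth accounts for such summits was not tested.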

Other observations

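Near other microRNA genes in the windows no summit of either library was close. The MIR3173 hairpin inside DICER1 (chromosome 14, 95137919 to 95137986) lay 8753 bp from the nearest overexpression summit and 8693 bp from the nearest control summit. MIR6816, past the end of DGCR8 (chromosome 22, 20114686 to 20114751), lay 10750 bp and 10924 bp away.

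Beyond the gene ends, DICER1 had 2 control summits below its lower end, with 14 reads at 95083352 and 11 at 95084932, and no overexpression summit there. Upstream of XPO5, 4453 to 4870 bp from its higher end, the overexpression library had 19 reads at 43580491 and 21 at 43580908. Control had 22 at 43580494. These summits lie inside POLH. Upstream of AGO4, the overexpression library had 12 reads at 35806186 and control 11 at 35805919.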
